A study of Rattus norvegicus with 6 samples.

Results

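Genes that handle nucleotides and nucleosides outside the cell, Enpp1, P2rx2 and Slc28a2, were examined in rat thoracic aorta from a spontaneously hypertensive strain. They were chosen by the RefSeq mRNA accession of their catalogue probes, NM_053535 for Enpp1, NM_053656 for P2rx2 and NM_031664 for Slc28a2. Each has 1 catalogue probe, and they are 3 of the 30 genes named among the 50 catalogue probes, on an array of 38804 probes. The other probes were not matched to genes here.

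All 6 rats were of the SHR strain, an inbred line that becomes hypertensive without treatment, so both groups share that background. Per the labels, the peptide group (3 rats) was given daily intravenous injections of the Ganoderma lingzhi peptide SYP, 5 mg/kg, over 28 days. The control group (3 rats) was given saline in its place. Treatment began at 12 weeks of age, and the aortas were collected at 16 weeks. The labels call the rats female in 1 field and male in another. Normotensive rats were not analysed here, so the values describe the hypertensive aorta with and without the peptide. Each rat was measured on its own single-colour array. From the protocol, each array stands for a different animal.

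Enpp1 encodes an ectoenzyme that splits extracellular ATP into AMP and pyrophosphate, an inhibitor of mineral deposition, and its loss is known to calcify arteries. The AMP can be turned into adenosine by further ectoenzymes, and adenosine relaxes many vessels. P2rx2 encodes a subunit of an ATP-gated cation channel that is best known from neurons. Slc28a2 encodes a sodium-coupled transporter that carries purine nucleosides such as adenosine, and uridine, into cells. The genes thus stand for the breakdown of extracellular ATP, its sensing, and the uptake of nucleosides.

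All 10 spots of each member probe were well above background on all 6 arrays, and none was saturated. Over all probes that share ran from 95.41% to 98.04%. Control 1, 2 and 3 and peptide 1 shared a scan date and are called slide 1 here. Peptide 2 and 3 shared another scan date and are called slide 2. The 75th percentile of the signal, used to scale the arrays, was 224 to 251 on slide 1 and 328 and 336 on slide 2. The number of arrays limits the precision of every group mean. None of the 36 cell type markers listed for the vessel wall and its neighbours had a named probe, so the tissue label was not checked here.

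In the control aortas Enpp1 gave a processed signal, the geometric mean of background-subtracted spot intensities, of 1940 in control 1, 764 in control 2 and 861 in control 3. On the control arrays that placed it above 91%, 87.6% and 88.5% of all probes. Slc28a2 was at 1730, 1170 and 834, above 90.3%, 90.5% and 88.3% of all probes. P2rx2 was at 25.7, 35.9 and 39.1, above 19.3%, 24.2% and 23.3%. The ectoenzyme and the transporter were therefore read from bright probes, and the channel from a dim one. The P2rx2 signal nevertheless exceeded the lowest signal well above background, which was 8.35 to 10.2 on the control arrays. Probe brightness also depends on how well each probe binds its target, so no order of abundance between the genes is drawn from these levels.

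The normalised log2 signal, which is the log2 processed signal minus the 75th percentile of its array, varied among the control rats for all 3 genes. For Enpp1 it was 2.95 in control 1, 1.77 in control 2 and 1.89 in control 3. Control 1 stood apart, and the SD of 0.65 over the controls was larger than that of 85.6% of the tested probes. Slc28a2 was at 2.78, 2.38 and 1.84, with an SD of 0.47. P2rx2 was at -3.29, -2.64 and -2.57, with an SD of 0.40. On this scale control 1 was thus the highest control for the enzyme and the transporter and the lowest for the channel. By percentile on its own array the transporter was higher in control 2, at 90.5 against 90.3 in control 1. The median SD over the controls was 0.36 for all tested probes.

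After the peptide, Enpp1 was at 1.39 in peptide 1, 1.55 in peptide 2 and 1.37 in peptide 3. These 3 values lay close together, with an SD of 0.10, smaller than that of all but 6.5% of the tested probes. P2rx2 was at -2.64 in peptide 1, -3.63 in peptide 2 and -3.64 in peptide 3. The treated rat on the slide of the controls lay close to control 2 and 3, and both rats on slide 2 were the lowest of all 6. Slc28a2 was at 1.86 in peptide 1, 2.62 in peptide 2 and 2.66 in peptide 3. Here peptide 1 was next to the lowest control, and the pair on slide 2 lay between control 2 and control 1.

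**Figure D1:**
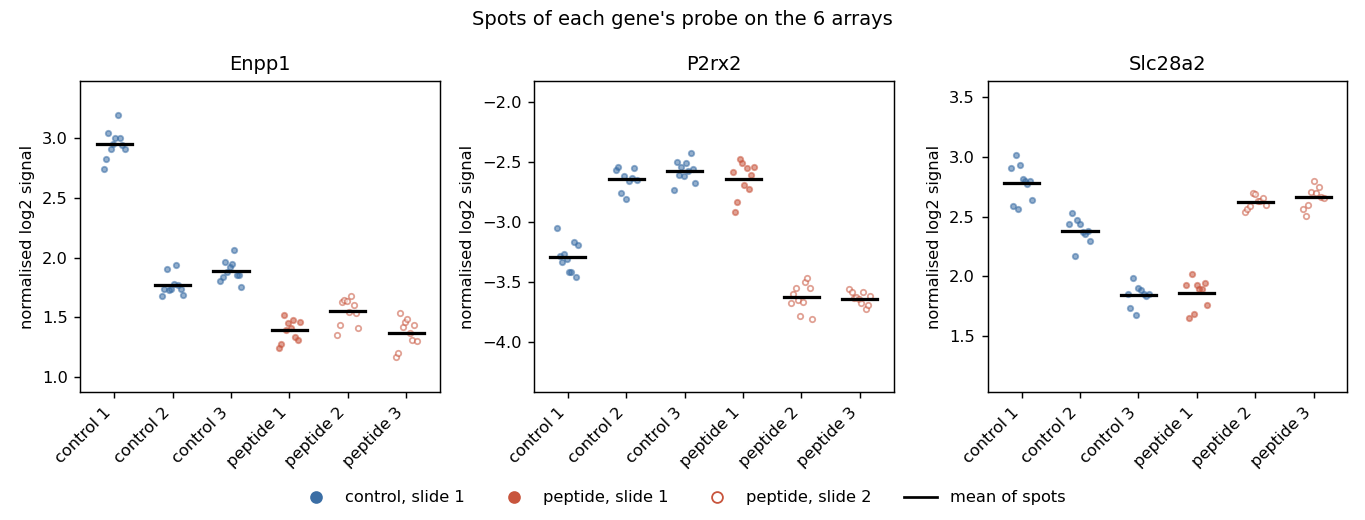
Normalised log2 signal of the spots of each probe on the 6 arrays, with the mean of the spots as a black line. Filled points are arrays on slide 1 and open points arrays on slide 2; the Enpp1 means of the peptide arrays, 1.37 to 1.55, lie below the lowest control mean of 1.77.

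The question the design addresses is which transcripts differ between treated and control aortas. Enpp1 was 1.7-fold lower in the peptide group, at 1.43 ± 0.10 (SD, n = 3) against 2.20 ± 0.65 (SD, n = 3) in the controls. All 3 peptide arrays lay below all 3 controls. P2rx2 was at -3.30 ± 0.57 (SD, n = 3) against -2.83 ± 0.40 (SD, n = 3), a 1.38-fold lower mean with overlapping groups. Slc28a2 was at 2.38 ± 0.45 (SD, n = 3) against 2.34 ± 0.47 (SD, n = 3), a 1.03-fold higher mean with overlapping groups.

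None of these differences passed the test. For Enpp1 the log2 difference, peptide minus control, was -0.77 (SE 0.35, 95% interval -1.54 to 0.005), with a limma p of 0.0512 and a Benjamini-Hochberg adjusted p of 0.757. For P2rx2 it was -0.47 (SE 0.36, interval -1.26 to 0.33), with a limma p of 0.221 and an adjusted p of 0.757. For Slc28a2 it was 0.04 (SE 0.35, interval -0.73 to 0.81), with a limma p of 0.904 and an adjusted p of 0.971. The intervals of P2rx2 and Slc28a2 include changes in either direction, so these data do not show that either gene stayed the same. The exact two-sided permutation test over the 6 arrays gave 0.1 for Enpp1, the smallest p that 3 against 3 arrays allow. It gave 0.3 for P2rx2 and 0.9 for Slc28a2.

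By limma with Benjamini-Hochberg adjustment, 0 of the 3 genes passed 0.05, against 0% of the 37723 tested probes. At an unadjusted limma p under 0.05 it was 0 of 3 genes, against 2.83% of the tested probes (1068). That count of probes rested on single arrays, at 3640 without control 1, 701 without control 3, and 9149, 467 and 238 without peptide 1, 2 and 3. It was 637 with the slide as a fixed block and 255 with it as a random block. Enpp1 itself passed the unadjusted limma threshold without control 2 or control 3, where 1196 and 701 of all probes passed. It also passed after quantile normalization (1468 probes), cyclic loess (1484) and normexp with quantile normalization (1406), and in the deposited table (1471 of 37721). The other fits tested 37722 or 37723 probes. The deposited table repeated quantile normalization, with -0.72 (SE 0.22) and a limma p of 0.0138 in both. P2rx2 passed the unadjusted limma threshold without peptide 1, where each group lies on a slide of its own and 9149 probes passed. Enpp1 alone had groups that did not overlap with the peptide lower, 1 of 3 genes against 4.19% of the tested probes. For 1.28% of the tested probes the groups did not overlap with the peptide higher, and none of the 3 genes was among them. The difference lay below 0 for 72.2% of the tested probes, with a median of -0.214, and for 2 of the 3 genes. Relative to that median Enpp1 was at -0.55, P2rx2 at -0.25 and Slc28a2 at 0.26. The Enpp1 difference was at or above that of 3.55% of the tested probes, that of P2rx2 of 21.5% and that of Slc28a2 of 75.7%.

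**Figure D2:**
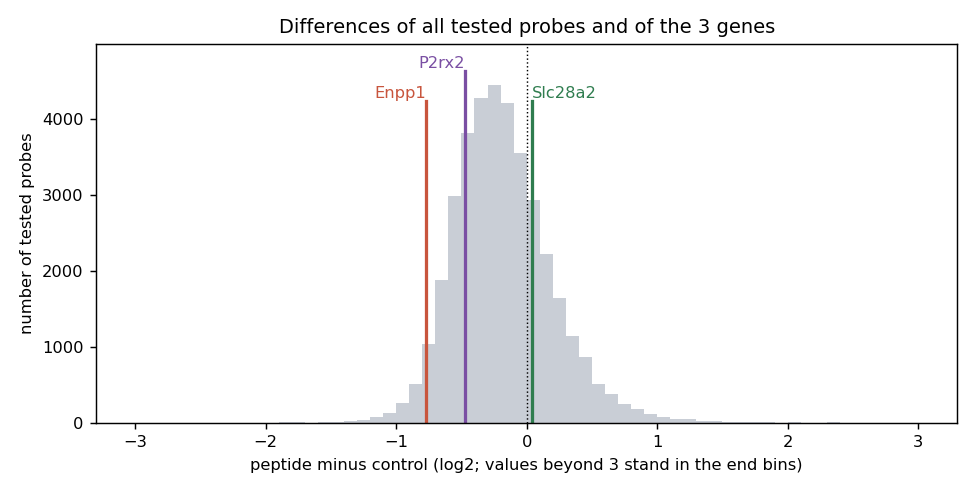
Number of tested probes by their log2 difference, peptide minus control, in bins of 0.1. Enpp1 (-0.77) lies in the lower tail, P2rx2 (-0.47) within the bulk of the probes, and Slc28a2 (0.04) above their median of -0.214.

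Slide 2 held no control array, so the only Enpp1 difference within a slide is that of peptide 1. It differed from the mean of the 3 controls by -0.82. Peptide 2 and 3 differed from the same controls on the other slide by -0.74, a value that moved with the scaling. Without scaling it was -0.25, after median scaling -0.41 and with the spike-in probes as scale 0.01, where peptide 1 was at -0.79, -0.86 and -0.83. The signals of the spike-in probes spanned only 24.5 to 98.7 over the arrays, narrow for a dilution series, which limits them as a scale. With the slide as a block, which rests on peptide 1 against the controls, the difference was -0.82 (SE 0.49, limma adjusted p = 1). Without control 1 the difference over all other arrays was -0.39 (SE 0.23), with a limma p of 0.128 and an adjusted p of 0.452. Of the 45 genes listed for extracellular nucleotides and nucleosides, the 3 described here had a named probe and the others were not analysed here; 0 of the 3 passed the test. That list was drawn up with earlier results of these data known. In whole tissue, fewer cells of a type and less RNA per cell cannot be told apart.

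For P2rx2 and Slc28a2 the sign differed between the slides in the main scaling. P2rx2 differed from the control mean by 0.19 in peptide 1 and by -0.80 in peptide 2 and 3. These values moved with the scaling, to 0.15 and -0.28 after quantile normalization and 0.18 and -0.04 with the spike-in probes. Both were below 0 under normexp with the 75th percentile (-0.45 and -1.02) and scaled on the other named genes (-0.13 and -0.41). Slc28a2 differed by -0.48 in peptide 1 and by 0.30 in peptide 2 and 3, and its sign differed between the slides under every scaling run. For the pair on slide 2, slide and treatment cannot be told apart. With the slide as a block the limma p was 0.618 for P2rx2 and 0.273 for Slc28a2, and the adjusted p was 1 for both.

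The 10 spots of a probe sit at the same places on every array, so they show how far a value rests on single spots. The SD among the spots of an array was 0.09 to 0.12 for Enpp1, 0.05 to 0.15 for P2rx2 and 0.06 to 0.15 for Slc28a2. The SD between rats of a group was larger, except for Enpp1 in the peptide group, where it was 0.10. The spots are repeat readings of an extract and not replicates of a condition. At each of the 10 places the 3 peptide values of Enpp1 lay below the 3 control values, and the differences ran from -0.89 to -0.69. For P2rx2, 9 places were measured on all arrays, with differences from -0.59 to -0.34. For Slc28a2, 7 places were, with differences from -0.11 to 0.23, of which 5 were above 0 and 2 below.

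The order of the Enpp1 values depended on the scaling between arrays. Before any scaling the log2 processed signal was 9.58 to 10.9 in the controls and 9.29 to 9.94 in the peptide group, so the groups overlapped. Peptide 2, at 983, and peptide 3, at 846, lay on slide 2. Its 75th percentiles were 336 and 328, against 224 to 251 on slide 1. Its medians were 87.1 and 86.8, against 70.7 to 85.8, so slide 2 was not brighter to the same extent throughout. As a percentile among the probes of its own array, Enpp1 was at 87.6 to 91 in the controls and at 84.8 to 85.6 in the peptide group. Over 11 ways of expressing the signal, including no scaling, the Enpp1 groups did not overlap in 8, with the peptide lower. They overlapped without scaling, after median scaling and with the spike-in probes as scale. The 8 are not separate checks, since the deposited table repeated quantile normalization. The P2rx2 groups did not overlap in 1 of the 11, normexp with the 75th percentile, and the Slc28a2 groups overlapped in all 11. Under normexp with the 75th percentile the median difference of all tested probes was -0.494. At an unadjusted limma p under 0.05, 5756 probes were lower there, against 866 in the main scaling. Scaled on the other named genes, the lowest Enpp1 control was at 2.48 and the highest peptide value at 2.47. In the main scaling 4.19% of the tested probes had no overlap with the peptide lower. That share was not counted for the other ways.

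In the authors' deposited table, on a log2 scale, Enpp1 was at 10.62, 9.91 and 10.10 in control 1, 2 and 3 and at 9.53, 9.53 and 9.41 in peptide 1, 2 and 3. The difference was -0.72 (SE 0.22), with a limma p of 0.0138 and an adjusted p of 0.809. P2rx2 ranged from 4.89 to 5.14 in the controls and from 4.73 to 5.21 in the peptide group, with a difference of -0.13 (SE 0.19). Slc28a2 ranged from 10.04 to 10.51 and from 10.06 to 10.74, with a difference of 0.12 (SE 0.24). The 6 columns of that table differed by at most 0.026 at each of 99 percentiles, so they have nearly the same distribution.

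The ratio of 2 probes on the same array removes a multiplier common to the whole array, but not a difference between arrays in the spread of signals. A changed ratio therefore need not be an unequal change of the genes. After quantile normalization the differences, peptide minus control, were -0.82 for Enpp1 over Slc28a2, -0.58 for Enpp1 over P2rx2 and -0.24 for P2rx2 over Slc28a2. The values below are without that step. For Enpp1 over Slc28a2 the log2 ratio was 0.17, -0.61 and 0.04 in control 1, 2 and 3 and -0.47, -1.07 and -1.29 in peptide 1, 2 and 3. The ratio was 1.75-fold lower in the peptide group, a log2 difference of -0.81, but peptide 1 lay above control 2. With the slide as a block, that is for peptide 1 alone, the difference was -0.33, and for peptide 2 and 3 it was -1.05. The exact two-sided permutation p was 0.2, and 0.6 after Benjamini-Hochberg adjustment over the 3 pairs. The enzyme thus had a lower mean against the transporter, by less than the arrays could separate.

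For Enpp1 over P2rx2 the log2 ratio was 6.24, 4.41 and 4.46 in the controls and 4.03, 5.17 and 5.00 in the peptide group. Control 1 was the highest and peptide 1 the lowest, and the difference was -0.30 (exact permutation p = 0.8, adjusted p = 0.8). Without control 1 it was 0.30, and with the slide as a block -1.01. For P2rx2 over Slc28a2 the ratio was -6.07, -5.02 and -4.41 in the controls and -4.50, -6.25 and -6.29 in the peptide group. Control 1 lay with peptide 2 and 3, and peptide 1 with control 3, and the difference was -0.51 (exact permutation p = 0.5, adjusted p = 0.75). It was 0.67 with the slide as a block.

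**Figure D3:**
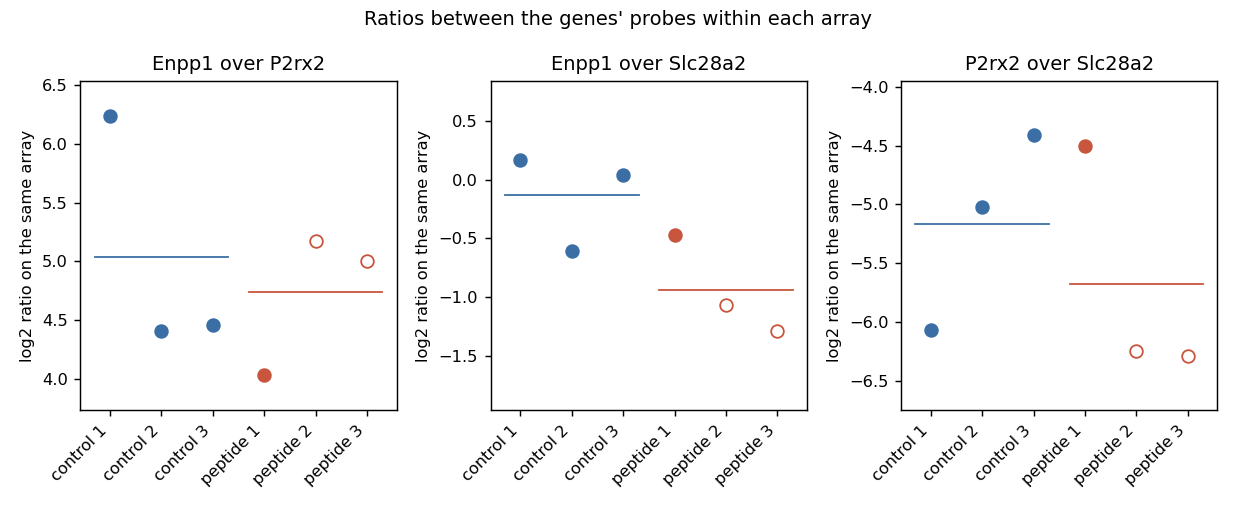
Log2 ratio between the probes of each pair of genes on the same array; lines are group means, filled points slide 1 and open points slide 2. The groups overlap in all 3 pairs, and P2rx2 over Slc28a2 is lowest in peptide 2, peptide 3 and control 1.

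The profiles over the 6 arrays were compared with those of the other 29 named genes by Pearson correlation, as a description of arrays that share 2 slides. Enpp1 was most like Pop7, a subunit of RNase P (r = 0.89), the exon junction protein Magoh (r = 0.85) and the ubiquitin ligase adaptor Ndfip2 (r = 0.84). With each group set to its own mean these were 0.90, 0.88 and 0.94. Such centred values rest mainly on the controls, where the Enpp1 SD was 0.65 against 0.10 in the peptide group and control 1 stood apart. After quantile normalization r was 0.78 for Pop7, 0.71 for Magoh and 0.69 for Ndfip2, and the order changed. Napepld (r = 0.79) then came first, and Map2 (r = 0.77) stood above Magoh and Ndfip2. P2rx2 was most like the luteinizing hormone receptor Lhcgr (r = 0.98), the synaptic scaffold Dlg4 (r = 0.96) and the inflammasome sensor Nlrp3 (r = 0.95). After quantile normalization these were 0.91, 0.79 and -0.90, so the likeness to Nlrp3 turned with the scaling.

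Slc28a2 had no close match. Its highest values were 0.50 for Ndfip2, 0.44 for Odf2l and 0.38 for Ndfip1, another ubiquitin ligase adaptor, and they became -0.10, 0.22 and -0.23 after quantile normalization. Nlrp3 (r = 0.62) then came first. Among the 3 genes, r was 0.37 for Enpp1 with Slc28a2, -0.01 for Enpp1 with P2rx2 and -0.83 for P2rx2 with Slc28a2. After quantile normalization these were -0.18, 0.14 and -0.78. The channel and the transporter ran opposite over these arrays, in a pattern that followed peptide 2, peptide 3 and control 1 against the rest. The 75th percentile and median signals lay furthest apart on the same arrays, at 336 and 87.1, 328 and 86.8, and 251 and 70.7. They were 224 and 77 in control 2, 233 and 85.8 in control 3, and 240 and 81.6 in peptide 1. Whether this spread of signals underlies the pattern was not tested.

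In the RefSeq annotation of the rat assembly GRCr8, used for names alone, all 3 genes are protein-coding. Enpp1 has 3 listed transcripts, lies next to Ccn2, a matricellular growth factor gene, and overlaps no listed gene. P2rx2 has 11 listed transcripts and overlaps the gene Lrcol1. Slc28a2 has 10 listed transcripts and overlaps 1 tRNA gene. Which of these transcripts each probe reads was not analysed here.

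**Figure D4:**
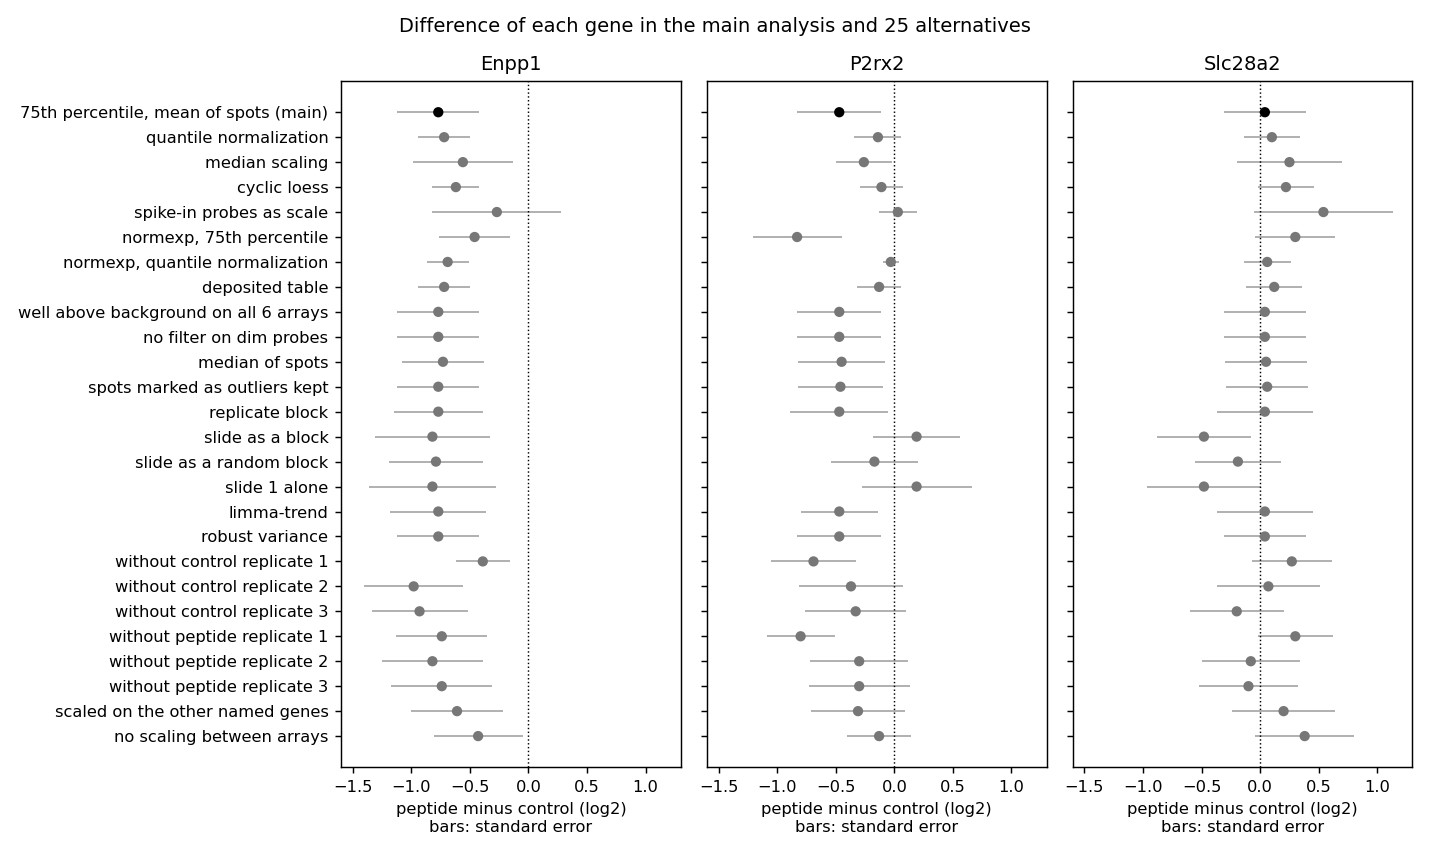
Log2 difference, peptide minus control, of each gene in the main analysis (black) and under 25 alternatives (grey), with the standard error as bars. Enpp1 stays below 0 in all 25, from -0.98 to -0.27, whereas P2rx2 (-0.83 to 0.19) and Slc28a2 (-0.48 to 0.54) fall on both sides of 0. Some alternatives cannot move the difference or repeat another, so the 25 are not separate checks.

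Across the 25 alternatives that were run, Enpp1 lay below 0 in each, between -0.98 and -0.27, with limma adjusted p-values from 0.269 to 1. The -0.27 came with the spike-in probes as scale. The unadjusted limma p of Enpp1 ran from 0.0101 to 0.637. The alternatives are not separate checks. The changed filters on dim probes, limma-trend, robust variance and the replicate block cannot move the difference, which stayed at -0.77. Slide 1 alone repeated the slide block at -0.82, and the deposited table repeated quantile normalization at -0.72. P2rx2 ran from -0.83 to 0.19 and Slc28a2 from -0.48 to 0.54, with limma adjusted p-values from 0.177 to 1 and from 0.554 to 1.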

How the data were processed

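Per the labels' protocols, aortic RNA depleted of ribosomal RNA was amplified by random priming, labelled with Cy3 and hybridised to Agilent single-colour arrays. The authors deposited the spot intensity of each array, made with Agilent Feature Extraction 11.0.1.1 (protocol GE1_1100_Jul11), per the file headers. Its background is subtracted within the array, and arrays are not brought to a common scale. A deposited value table on the log2 scale has 6 columns that share a median of 6.3419; each correlated with its own array's log2 scanner values at r of at least 0.9974 across probes, which settles scale and direction, while its centring and spot averaging are not given in the sources used here.

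Spots marked as outliers and control spots were left out, and the spots of a probe were averaged on the log2 scale. The fit gave no value to 64 pairs of probe and array that had only outlier spots, none of them of the 3 genes. Each array's 75th percentile over probes was subtracted. Probes had to be well above background on 3 or more of the 6 arrays, which left 37723. These were tested two-sided with lmFit and eBayes of limma 3.58.1 (R 4.3.3), Benjamini-Hochberg adjusted over all 37723, at a threshold of 0.05. Normexp used the median signals, with an offset of 50. The fit was tested on simulated data, and the outcome is not given here. Figures were drawn with matplotlib 3.10.9.

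Of 50 catalogue probes, 30 matched RefSeq genes of GRCr8 by accession. The members, lists and tests were chosen with earlier results of these data known. Named genes are the 3 members, list members with a named probe, and for each member the 3 named genes of highest correlation. Slides were told apart by their scans.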

Additional observations from a re-analysis of the deposited data

How the results depend on the processing

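The unscaled arrays, scaling on the other named genes and the probe count with the median of spots were added after seeing the data. No probe passed the adjusted threshold of limma under the alternatives run, except that leaving out 1 array gave 0 to 4 probes, with 4 without control 2. The unadjusted count was 1068 (202 higher, 866 lower), and 690 higher and 778 lower after quantile normalization, 603 and 598 after median scaling, 796 and 688 after cyclic loess, 1983 and 69 with the spike-in probes, 1336 and 132 without scaling, and 152 and 5756 with normexp under the same percentile. The median difference of all probes moved from -0.214 to -0.029, -0.011, 0.006, 0.281, 0.123 and -0.494.

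Signs turned as follows, and the cause was not tested. With the slide as a block, and in slide 1 alone, P2rx2 was at 0.19, Slc28a2 at -0.48 and P2rx2 over Slc28a2 at 0.67. With a random slide block Slc28a2 was at -0.19 and P2rx2 over Slc28a2 at 0.03. With the spike-in probes P2rx2 was at 0.03. Their 10 probes were well above background but lay within 24.5 to 98.7 on all arrays, a narrow range for a dilution series. Normexp with the 75th percentile gave 0.37 for Enpp1 over P2rx2.

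Leaving out 1 array gave -0.98 to -0.39 for Enpp1, -0.80 to -0.30 for P2rx2, -0.20 to 0.30 for Slc28a2, -0.61 to 0.30 for Enpp1 over P2rx2, -1.05 to -0.64 for Enpp1 over Slc28a2 and -1.10 to -0.13 for P2rx2 over Slc28a2. Slc28a2 was at -0.20, -0.08 and -0.10 without control 3, peptide 2 and peptide 3. Enpp1 over P2rx2 was at 0.30 and 0.05 without control 1 and peptide 1.

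Deviations of same-numbered arrays from their group means correlated at -0.013, -0.19 and -0.236, so the replicate numbers are not taken as pairing. With the replicate block the differences were -0.77, -0.47 and 0.04, and 0 probes passed.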
